A study of Mus musculus with 6 samples.

Results

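The alcohol dehydrogenase (Adh) and aldehyde dehydrogenase (Aldh) genes Adh1, Adh4, Adh5, Aldh1a1, Aldh1a7, Aldh1b1, Aldh1l1, Aldh2, Aldh3a2 and Aldh8a1 were followed in RNA-seq of mouse liver. They were chosen by name, and all 10 were found among the 54532 gene identifiers of the deposited tables and passed the filter that left 11672 genes for testing. The libraries labelled LKO came from untreated mice whose genotype is given as a liver-specific Arid2 knockout, and the WT libraries from untreated wild-type mice, with 3 libraries in each group. ARID2 belongs to PBAF, a complex that remodels chromatin. The Cre driver that makes the deletion, the age and the sex of the mice are not given in the labels. The labels list the libraries as separate samples without naming separate animals, and the p-values cover only the spread among them, which may be technical.

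Both enzyme families use NAD or NADP to remove hydrogen, the alcohol dehydrogenases turning alcohols into aldehydes and the aldehyde dehydrogenases turning aldehydes into acids. In the liver they carry out the oxidation of ethanol to acetaldehyde and acetate. They also act on retinol, fatty aldehydes, formaldehyde bound to glutathione, folate carriers of formyl groups and intermediates of tryptophan breakdown.

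Of the 10 genes, Aldh1a1 and Aldh1a7 are the closest copies. They lie on chromosome 19 (mm10) on opposite strands with their 3′ ends facing each other, Aldh1a1 at 20492715 to 20643465 on the plus strand and Aldh1a7 at 20692953 to 20727562 on the minus strand, 49487 bases apart. Their coding sequences in GENCODE vM21 are both 1506 bases long and were identical at 1380 of them, or 91.6%. The next closest pair, the mitochondrial enzyme genes Aldh1b1 and Aldh2, reached 69.5%, and Adh1 and Adh5 reached 65.3%. The first 120 coding bases of the close pair are shown because the length of shared stretches bears on how far reads can be told apart, with the 10 differing bases in capitals.
Aldh1a1: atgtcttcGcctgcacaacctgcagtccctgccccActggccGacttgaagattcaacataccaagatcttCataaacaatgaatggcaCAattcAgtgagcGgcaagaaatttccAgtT
Aldh1a7: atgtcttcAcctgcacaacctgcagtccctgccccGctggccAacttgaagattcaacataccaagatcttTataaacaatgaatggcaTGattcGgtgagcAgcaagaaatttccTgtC

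The longest run of bases common to both transcripts was 100 bases, against at most 23 bases for any other pair of the 10. Levels of Aldh1a1 and Aldh1a7 are therefore uncertain to the extent that reads were shared. The likeness also held upstream. In the RefSeq promoter windows (GRCm38.p6), which hold 300 bases around the start, the stretch from -110 to 50 was identical at 152 of 160 aligned bases (95%). The bases from -110 to -1 are shown with the 6 differing bases in capitals, for Aldh1a1 at chr19:20601858-20601967 on the plus strand and for Aldh1a7 at chr19:20727557-20727666 on the minus strand.
Aldh1a1: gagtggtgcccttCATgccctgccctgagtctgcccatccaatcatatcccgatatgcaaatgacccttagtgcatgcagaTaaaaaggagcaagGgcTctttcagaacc
Aldh1a7: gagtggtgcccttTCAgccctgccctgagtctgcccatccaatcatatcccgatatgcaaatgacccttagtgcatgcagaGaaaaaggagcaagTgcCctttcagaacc

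Both stretches hold the letters CCAAT from base -72. Windows were found for 9 of the 10 genes, all but Aldh2. CCAAT on either strand occurred in 6 of these 9 windows and in 37.4% of all 32817 promoter windows. The nuclear receptor hexamer AGGTCA occurred in the windows of Adh4 and Aldh1l1, and in 16.3% of all windows, while 2 copies of it in a row, spaced by 1 base of any kind, occurred in none of the 9 and in 0.0396% of all windows. The STAT letters TTCNNNGAA, which read the same on both strands and so give 1 match per place, occurred only in the Aldh8a1 window among the 9 and in 8.29% of all windows. Because the series title concerns the kinase JAK2, the bases around that match are shown, from -180 to -130 (chr10:21377120-21377170, plus strand), with the match in capitals.
Aldh8a1: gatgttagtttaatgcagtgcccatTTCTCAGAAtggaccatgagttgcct

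A match is a description of the letters in the window. The tables used here hold no measurement of binding.

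The tables gave FPKM, reads scaled to exon length and to a scale of each library that was not its read total. Their steps corresponded to 13947787 to 18159285 reads per library. Levels of Arid2, the targeted gene, overlapped between the groups. It was at 2.55, 1.33 and 2.04 FPKM in replicates 1 to 3 labelled LKO, against 2.65, 1.74 and 1.79 FPKM in WT replicates 1 to 3. These sums over the whole gene do not show a deleted exon, so the genotype labels were not checked by them, and every direction here is between libraries so labelled. Both libraries numbered 1 stood apart from the other 4 on the first principal component (-46.9 in the one labelled LKO and -42.6 in WT, against -6.58 to 51.7). Few genes had 1 to 5 reads in them (2368 in the one labelled LKO and 2003 in WT), compared with 3913 to 4263 genes elsewhere. Results below are therefore given with and without them where they differ. Hepatocyte markers were high in every library, their 6 genes summing to 46203 to 62725 FPKM in libraries labelled LKO and 42582 to 56756 FPKM in WT.

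None of the 10 dehydrogenase genes was called higher or lower in libraries labelled LKO than in WT. With limma-trend on log2(FPKM + 1) and Benjamini-Hochberg adjustment over all genes tested, 0 of 10 passed the threshold of 0.05, 0 had an unadjusted p under 0.05 (9.22% of all genes tested did), and voom on the recovered reads also called 0. Over all genes tested the call rate was 0.0428%, with 1 gene higher (0.00857%) and 4 lower (0.0343%) of 11672, so a count of 0 among 10 is near the background. The groups overlapped for all 10 genes, whereas they did not overlap for 15.4% of genes tested, 8% with LKO above and 7.42% with LKO below. Of the 10, 6 were fitted above 0 and 4 below 0, with a median log2 difference of 0.29 against 0.03 over all genes tested. That split rested on single libraries: without WT replicate 1 the median was -0.22, with 4 above 0 and 6 below, and without replicate 1 labelled LKO it was 0.64, with 8 above and 2 below. Without replicate 2 or replicate 3 labelled LKO it was 0.05 and 0.07, with 5 above and 5 below in both cases, and without WT replicate 2 or 3 it was 0.55 and 0.46. The intervals were wide: the 95% intervals reached between 0.81 and 1.79 log2 units to either side, and beyond 1 log2 unit for 8 genes. Differences of that size, and larger ones, could therefore go uncalled with these libraries. Acot2, a gene outside the 10, was fitted at 2.05 (limma, 95% interval 1.24 to 2.86, adjusted p = 0.135) and was not called. A p above the threshold does not show that the levels were alike. In whole liver, fewer cells of a type and less RNA per cell cannot be told apart.

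**Figure D1:**
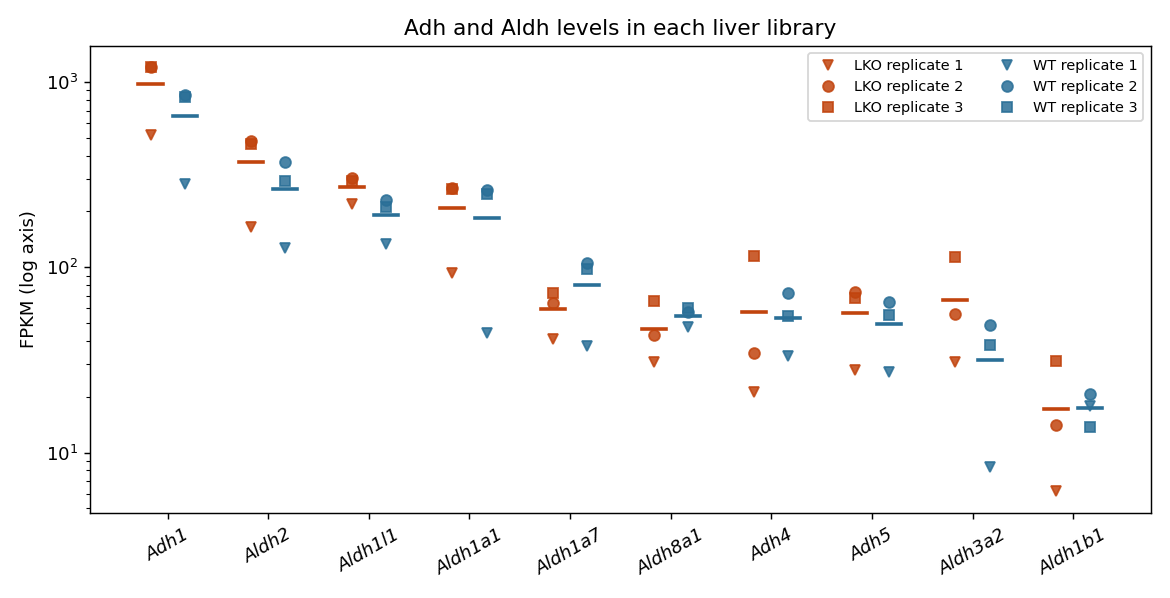
FPKM of each of the 10 genes (log axis) in the 3 libraries labelled LKO (orange, left) and the 3 WT libraries (blue, right), with horizontal bars at the group means and a marker shape per replicate number. The triangles, which mark the libraries numbered 1, are the lowest of their group for every gene except Aldh1b1 in WT, and the groups overlap for all 10 genes.

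Adh1 encodes the class I enzyme, the main cytosolic enzyme of ethanol oxidation. It was the most abundant of the 10 and stood at rank 71 of all genes tested by mean FPKM. Adh1 (ENSMUSG00000074207, chromosome 3, 138260991 to 138290698, plus strand) was at 519.7, 1200.1 and 1200.6 FPKM in replicates 1 to 3 labelled LKO, against 283, 847 and 831 FPKM in WT replicates 1 to 3. Replicates 2 and 3 labelled LKO lay above every WT library, while replicate 1 lay within the WT range. The fitted log2 difference was 0.64 ± 0.57 (SE, limma fit; 95% interval -0.70 to 1.97, adjusted p = 0.810). It was 0.11 without WT replicate 1, 1.04 without replicate 1 labelled LKO and 0.52 without both. An antisense gene, Gm16559, shares 136 bases of exon with Adh1, 6.09% of its exon length, and reached at most 4.58 FPKM. The strand setting of the counting step is not known from the labels, so reads of the pair could not be separated.

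Adh4, the class II enzyme that acts on retinol and longer alcohols, had the widest spread in proportion to its level within the libraries labelled LKO. Adh4 (ENSMUSG00000037797, chromosome 3, 138415466 to 138430892, plus strand) was at 21.1, 34.6 and 115 FPKM in replicates 1 to 3 labelled LKO, against 32.98, 72.8 and 54.7 FPKM in WT replicates 1 to 3. Replicate 3 labelled LKO held the highest value of the 6 and replicate 1 labelled LKO the lowest, so the WT values fell between them. The log2 difference was -0.20 ± 0.63 (SE, limma fit; 95% interval -1.67 to 1.26, adjusted p = 0.955). Leaving out replicate 1 labelled LKO gave the opposite sign, at 0.31.

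Adh5 encodes the class III enzyme, which oxidises formaldehyde bound to glutathione and reduces S-nitrosoglutathione. Adh5 (ENSMUSG00000028138, chromosome 3, 138443093 to 138455499, plus strand) was at 28.0, 73.8 and 68.5 FPKM in replicates 1 to 3 labelled LKO, against 27.0, 65.2 and 55.1 FPKM in WT. The libraries numbered 1 were nearly equal, and the other 4 lay within a factor of 1.34 of each other. Its log2 difference was 0.18 ± 0.49 (SE, limma fit; 95% interval -0.98 to 1.33, adjusted p = 0.953), and it was -0.20 without WT replicate 1.

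These 3 genes belong to a cluster of 6 Adh genes that spans 237740 bases of chromosome 3 in the order Adh7, Adh1, Adh6a, Adh6b, Adh4 and Adh5, all on the plus strand. Neighbours in the cluster differed widely in level. Adh6a and Adh6b, between Adh1 and Adh4, were at most 0.0756 FPKM and 0.320 FPKM in any library. Adh7, the class IV enzyme that oxidises retinol, was at 8.79, 7.06 and 3.81 FPKM in replicates 1 to 3 labelled LKO, against 11.03, 11.003 and 11.8 FPKM in WT. Every library labelled LKO lay below every WT library, but Adh7 did not pass the test (log2 difference -0.76 ± 0.31 SE, limma adjusted p = 0.510).

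**Figure D2:**
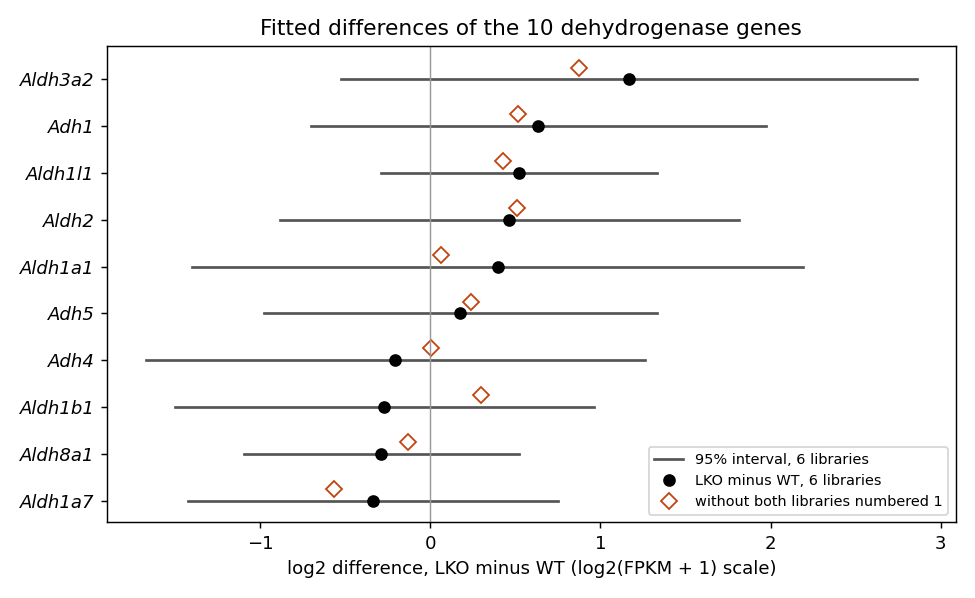
Fitted log2 difference, LKO minus WT, on the log2(FPKM + 1) scale for each of the 10 genes, with black points and 95% intervals from all 6 libraries, and open diamonds without both libraries numbered 1. Every interval crosses 0, and the diamonds of Adh4 (0.0046) and Aldh1b1 (0.30) lie on the other side of 0 from their points.

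Aldh2 and Aldh1b1 encode mitochondrial enzymes that oxidise acetaldehyde, the product of ethanol oxidation. Aldh2 (ENSMUSG00000029455, chromosome 5, 121566027 to 121593824, minus strand) was at 165, 477 and 460.4 FPKM in replicates 1 to 3 labelled LKO, against 127, 372 and 292 FPKM in WT replicates 1 to 3. Replicates 2 and 3 labelled LKO were above all WT libraries and replicate 1 was above only WT replicate 1 (log2 difference 0.47 ± 0.58 SE, limma, 95% interval -0.88 to 1.81, adjusted p = 0.879). The Aldh2 difference was 0.0088 without WT replicate 1, 0.96 without replicate 1 labelled LKO and 0.51 without both. Aldh1b1 was the least abundant of the 10. Aldh1b1 (ENSMUSG00000035561, chromosome 4, 45799022 to 45804604, plus strand) was at 6.17, 14.0 and 31.1 FPKM in replicates 1 to 3 labelled LKO, against 17.9, 20.8 and 13.7 FPKM in WT. The libraries labelled LKO held both the lowest and the highest value of the 6, and WT values varied little between them. The log2 difference was -0.27 ± 0.53 (SE, limma fit; 95% interval -1.50 to 0.96, adjusted p = 0.930), and 0.30 without both libraries numbered 1.

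Aldh1a1 encodes a cytosolic enzyme that oxidises retinal to retinoic acid, and its level followed the replicate number closely. Aldh1a1 (ENSMUSG00000053279, coordinates above) was at 92.6, 267 and 264 FPKM in replicates 1 to 3 labelled LKO, against 43.9, 260.1 and 248 FPKM in WT replicates 1 to 3. Among the 4 libraries not numbered 1, the highest value was 1.08 times the lowest, the narrowest spread of the 10 genes. The log2 difference over 6 libraries was 0.40 ± 0.77 (SE, limma fit; 95% interval -1.40 to 2.19, adjusted p = 0.929). It was -0.44 without WT replicate 1 and 0.06 without both libraries numbered 1.

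Aldh1a7, its copy, was the gene with the lowest fitted difference of the 10. Aldh1a7 (ENSMUSG00000024747) was at 41.0, 64.3 and 72.7 FPKM in replicates 1 to 3 labelled LKO, against 37.8, 105 and 97.8 FPKM in WT replicates 1 to 3. Replicates 2 and 3 labelled LKO lay below WT replicates 2 and 3, while WT replicate 1 was the lowest of all. Its fitted log2 difference was -0.34 ± 0.46 (SE, limma fit; 95% interval -1.42 to 0.75, adjusted p = 0.893), and -0.56 without both libraries numbered 1 (limma adjusted p = 0.484). Leaving out single libraries moved it between -0.80, without WT replicate 1, and -0.08, without WT replicate 2. It was also near 0 without replicate 1 labelled LKO (-0.09) and without WT replicate 3 (-0.13).

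The ratio of Aldh1a7 to Aldh1a1 within a library does not depend on the library scale. It was 0.443, 0.241 and 0.276 in replicates 1 to 3 labelled LKO, against 0.860, 0.404 and 0.395 in WT replicates 1 to 3. Replicates 2 and 3 labelled LKO had the lowest ratios, but replicate 1 labelled LKO overlapped the WT range. The geometric mean was 0.309 in libraries labelled LKO and 0.516 in WT, a log2 difference of -0.74 (two-sided exact permutation test, p = 0.3, n = 3 each, where the smallest possible p is 0.1). With the FPKM of both genes summed, the log2 difference was 0.18 ± 0.67 (SE, limma adjusted p = 0.966).

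**Figure D3:**
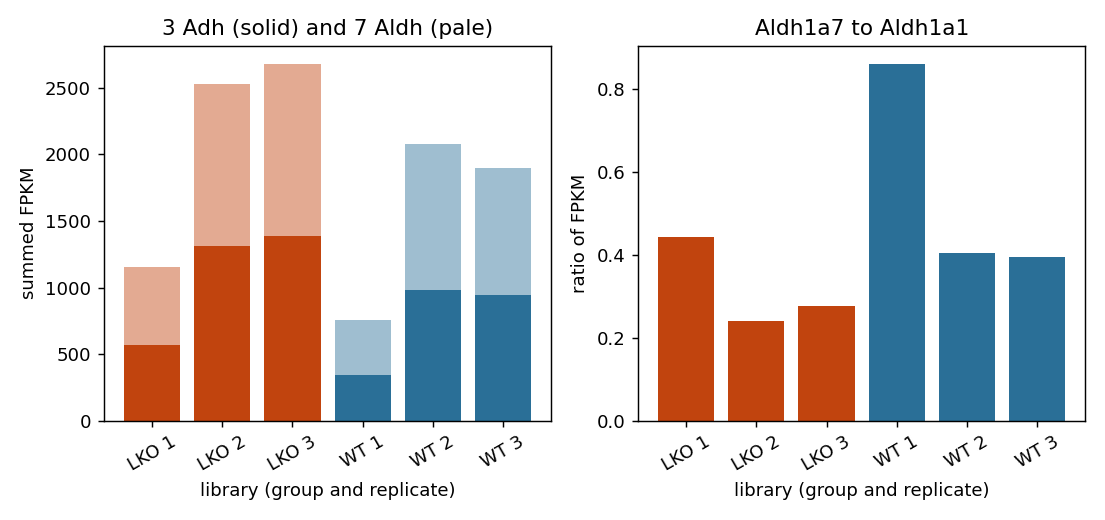
Left, summed FPKM of the 3 Adh genes (solid) and the 7 Aldh genes (pale) in each library; right, the ratio of Aldh1a7 to Aldh1a1 FPKM, with libraries labelled LKO in orange and WT in blue. The libraries numbered 1 have the lowest sums and the highest ratio of their group.

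Aldh3a2 had the largest fitted difference of the 10. It encodes the fatty aldehyde dehydrogenase of the endoplasmic reticulum, which oxidises long-chain aldehydes and is known as a target of the lipid-sensing receptor PPAR-alpha. Aldh3a2 (ENSMUSG00000010025, chromosome 11, 61223417 to 61267464, minus strand) was at 30.7, 55.9 and 114 FPKM in replicates 1 to 3 labelled LKO, against 8.35, 48.7 and 38.1 FPKM in WT replicates 1 to 3. Replicates 2 and 3 labelled LKO lay above all WT libraries and replicate 1 lay below WT replicates 2 and 3. Its fitted log2 difference was 1.17 ± 0.72 (SE, limma fit; 95% interval -0.52 to 2.86, adjusted p = 0.699). It was 0.42 without WT replicate 1, the lowest library, 1.63 without WT replicate 2, and 0.87 without both libraries numbered 1. Its neighbour Aldh3a1, 4995 bases away, was at 0.033 FPKM in replicate 2 labelled LKO and listed at 0 in the other 5 libraries.

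By Pearson correlation of log2(FPKM + 1) over the 6 libraries, the genes most like Aldh3a2 among 4677 genes averaging 5 FPKM or more were Rcbtb1 (r = 0.998), Tex2 (r = 0.993) and Gstt3 (r = 0.991). Gstt3, a theta class glutathione transferase gene, was at 7.60, 9.37 and 15.8 FPKM in replicates 1 to 3 labelled LKO, against 2.42, 8.98 and 8.41 FPKM in WT. All 4 genes were lowest in WT replicate 1 and highest in replicate 3 labelled LKO. With 6 libraries that share their scale and so many candidates, these values are a description only.

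Aldh1l1 encodes 10-formyltetrahydrofolate dehydrogenase, which releases carbon dioxide and tetrahydrofolate from formyl-folate. Aldh1l1 (ENSMUSG00000030088, chromosome 6, 90486427 to 90600203, plus strand) was at 219, 304 and 290.1 FPKM in replicates 1 to 3 labelled LKO, against 134, 230.3 and 211 FPKM in WT replicates 1 to 3. Of the libraries labelled LKO, only replicate 1 fell under the highest WT library, and by a small margin. The log2 difference was 0.52 ± 0.35 (SE, limma fit; 95% interval -0.29 to 1.33, adjusted p = 0.727), and it was 0.28 without WT replicate 1. The antisense gene Gm15756 shares 499 bases of exon with Aldh1l1 and reached at most 1.82 FPKM.

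Aldh8a1 encodes a dehydrogenase of 2-aminomuconate semialdehyde in the kynurenine pathway of tryptophan breakdown. Aldh8a1 (ENSMUSG00000037542, chromosome 10, 21377291 to 21396585, plus strand) was at 30.9, 43.1 and 66.0 FPKM in replicates 1 to 3 labelled LKO, against 47.3, 57.1 and 60.0 FPKM in WT replicates 1 to 3. Replicates 1 and 2 labelled LKO lay below every WT library and replicate 3 lay above every WT library. The log2 difference was -0.29 ± 0.35 (SE, limma fit; 95% interval -1.10 to 0.52, adjusted p = 0.872), and it ran from -0.57 without replicate 3 labelled LKO to -0.03 without replicate 1 labelled LKO.

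In order of mean FPKM, libraries labelled LKO ran Adh1 (973 ± 393 FPKM, SD, n = 3), Aldh2 (368 ± 175), Aldh1l1 (271 ± 45.3), Aldh1a1 (208 ± 99.7), Aldh3a2 (66.8 ± 42.6), Aldh1a7 (59.3 ± 16.4), Adh4 (57.0 ± 50.9), Adh5 (56.8 ± 25.1), Aldh8a1 (46.6 ± 17.8) and Aldh1b1 (17.1 ± 12.8). WT libraries ran Adh1 (653 ± 321 FPKM, SD, n = 3), Aldh2 (263 ± 125), Aldh1l1 (192 ± 51.1), Aldh1a1 (184 ± 121), Aldh1a7 (80.2 ± 37.0), Aldh8a1 (54.8 ± 6.66), Adh4 (53.5 ± 19.96), Adh5 (49.1 ± 19.8), Aldh3a2 (31.7 ± 20.9) and Aldh1b1 (17.5 ± 3.56). The leading 4 genes came in the same order in both groups. Adh1 lay apart from Aldh2 in libraries labelled LKO, where the lowest Adh1 value exceeded the highest Aldh2 value, and all other neighbours in either order overlapped in range. Within each of the 6 libraries Adh1 nonetheless exceeded Aldh2, by 2.23 to 3.14 times.

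The spread of the 10 genes followed the libraries more than the genotype labels. All 10 were lowest of the libraries labelled LKO in replicate 1, and 9 were lowest of the WT libraries in WT replicate 1, the exception being Aldh1b1. Over all genes tested, 43.5% were lowest in replicate 1 labelled LKO and 41.9% in WT replicate 1. The summed FPKM of the 10 genes was 1155, 2533 and 2682 in replicates 1 to 3 labelled LKO, against 758, 2079 and 1900.2 in WT replicates 1 to 3. These sums made up 0.307%, 0.586% and 0.759% of the FPKM of nuclear genes in libraries labelled LKO, against 0.228%, 0.546% and 0.480% in WT. Over the 45 pairs of the 10 genes, Pearson's r over the 6 libraries had a median of 0.71, with 10 pairs above 0.9, 11 below 0.5 and 0 below 0. The highest r was 0.983, between Adh5 and Aldh2, and the lowest 0.143, between Aldh1l1 and Aldh8a1. These values describe libraries that share 1 scale and carry no test.

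Other measures moved with the libraries as well. Reads of the mitochondrial genome took 27.6%, 7.72% and 4.76% in replicates 1 to 3 labelled LKO, against 20.7%, 10.2% and 18.5% in WT. The 5 endothelial markers summed to 27.5, 10.1 and 9.37 FPKM in replicates 1 to 3 labelled LKO, against 26.9, 16.9 and 20.01 FPKM in WT, and so were highest where the 10 genes were lowest. The hepatocyte markers were mixed. Alb, the albumin gene, and Cps1, of the urea cycle, were lowest of both groups in the libraries numbered 1, as the 10 genes mostly were: Alb was at 30704 FPKM in the one labelled LKO and 24010 FPKM in WT, and Cps1 at 109.9 FPKM in the one labelled LKO and 146 FPKM in WT. Alb in WT replicate 3, at 24295 FPKM, was close to WT replicate 1. Ttr and Serpina1a were lowest of their group in WT replicate 1 but not in replicate 1 labelled LKO, and Apoa1 was highest of its group in both libraries numbered 1. Hnf4a was at 144, 190 and 107 FPKM in replicates 1 to 3 labelled LKO, against 103, 100.1 and 94.9 FPKM in WT. Hnf4a was thus lowest of its group in neither library numbered 1, and its groups did not overlap. The part of these measures in the levels of the 10 genes was not tested.

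Without both libraries numbered 1, the 2 remaining libraries labelled LKO lay above both WT libraries for 6 of the 10 genes (Adh1, Adh5, Aldh1a1, Aldh1l1, Aldh2 and Aldh3a2) and below both for Aldh1a7. Among 11365 genes tested the same way, 47.1% did not overlap, 25.9% above and 21.2% below. None of the 10 passed the test in these 4 libraries (limma, adjusted p between 0.484 and 0.998), where 2 genes in all were called.

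The other genes of both families were mostly low or overlapping. Counts for this and the following lists stand beside these shares of all genes tested. An unadjusted p under 0.05 was found for 9.22%, every library labelled LKO above WT for 8%, and below WT for 7.42%. The lists were chosen with earlier results of these data known. Of 18 further Adh and Aldh genes, 9 passed the filter, and 0 were called higher and 0 lower (limma, 1 at an unadjusted p under 0.05). Among the 9, Adh7 alone had groups that did not overlap. Their median log2 difference was 0.14. Aldh4a1, a mitochondrial enzyme of proline breakdown, was at 13.6, 32.3 and 55.2 FPKM in replicates 1 to 3 labelled LKO, against 15.6, 28.8 and 22.3 FPKM in WT (limma adjusted p = 0.879). Aldh3b1, which acts on lipid-derived aldehydes, was at 1.85, 0.682 and 1.12 FPKM, against 1.74, 0.970 and 1.67 FPKM in WT (limma adjusted p = 0.906).

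The pathways in which the 10 genes act gave no call either. Voom on the recovered reads called 6 genes in all and 0 in the lists described here. Of 21 retinoid genes tested, 0 were called higher and 0 lower (limma, 4 at an unadjusted p under 0.05). In this list 3 had every library labelled LKO above WT and 2 below, and the median log2 difference was -0.06. Rdh16, a retinol dehydrogenase gene, was at 17.6, 23.5 and 33.1 FPKM in replicates 1 to 3 labelled LKO, against 3.98, 14.9 and 12.7 FPKM in WT (log2 difference 1.28 ± 0.48 SE, limma adjusted p = 0.482). Rdh9 was at 0.724, 1.09 and 1.73 FPKM, against 0.0867, 0.348 and 0.196 FPKM in WT (limma adjusted p = 0.331), and Rdh5 lay lower at 5.77, 4.99 and 5.08 FPKM, against 10.5, 8.42 and 9.89 FPKM in WT (limma adjusted p = 0.354). Rdh9 and Rdh16 belong to a family of close copies, so their levels are uncertain.

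Of 6 genes tested in a list drawn up for ethanol and acetate oxidation, 0 were called higher and 0 lower (limma), and the median was 0.31. The 1 gene at an unadjusted p under 0.05 was Ehhadh, which is also counted among the PPAR-alpha targets below. Ehhadh, a peroxisomal bifunctional enzyme gene, was at 73.0, 92.2 and 131 FPKM in replicates 1 to 3 labelled LKO, against 15.4, 69.0 and 32.9 FPKM in WT, with no overlap between the groups (log2 difference 1.51 ± 0.54 SE, limma adjusted p = 0.446). The acetyl-CoA synthetase genes Acss2 and Acss3 had overlapping groups. Acss2 was at 2.32, 10.7 and 13.1 FPKM, against 6.03, 23.7 and 7.70 FPKM in WT (limma adjusted p = 0.893), and Acss3 was at most 3.47 FPKM in any library (limma adjusted p = 0.802).

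Around Aldh1l1, 18 folate genes were tested, of which 0 were called higher and 0 lower (limma, 2 at an unadjusted p under 0.05), with a median of 0.03. Ftcd, which breaks down histidine-derived formiminoglutamate, was at 85.9, 84.0 and 102 FPKM in replicates 1 to 3 labelled LKO, against 235, 151 and 168 FPKM in WT, below in every library (log2 difference -0.999 ± 0.31 SE, limma adjusted p = 0.375). Ggh, a folate hydrolase gene, lay above WT in every library, at 6.01, 8.66 and 10.3 FPKM against 0.686, 4.11 and 3.75 FPKM in WT (limma adjusted p = 0.400), and Gldc, of glycine cleavage, overlapped (limma adjusted p = 0.671). Around Aldh8a1, 14 kynurenine pathway genes were tested, of which 0 were called higher and 0 lower (limma, 0 at an unadjusted p under 0.05), with a median of -0.22. Acmsd, whose product acts just before Aldh8a1, was at 4.23, 3.98 and 4.98 FPKM in replicates 1 to 3 labelled LKO, against 7.75, 5.14 and 7.15 FPKM in WT (log2 difference -0.50 ± 0.24 SE, limma adjusted p = 0.603). Afmid and Nadsyn1 had overlapping groups (limma adjusted p = 0.693 and 0.613).

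Targets of PPAR-alpha were listed without Aldh3a2 itself, and had the highest median of the 9 pathway and zonation lists. Of 23 tested, 0 were called higher and 0 lower (limma), and 8 had an unadjusted p under 0.05, against 9.22% of all genes tested. In this list 21 were fitted above 0, against 54.1% of all genes tested. For 7 every library labelled LKO lay above WT (8% of all genes tested), and for 0 below (7.42%). The median log2 difference was 0.50. Acot2, an acyl-CoA thioesterase gene, was at 8.53, 15.5 and 10.4 FPKM in replicates 1 to 3 labelled LKO, against 1.06, 3.24 and 1.89 FPKM in WT (log2 difference 2.05 ± 0.34 SE, limma adjusted p = 0.135). Plin2, a lipid droplet coat gene, was at 253, 283 and 146 FPKM, against 22.6, 109 and 39.4 FPKM in WT (log2 difference 2.22 ± 0.59 SE, limma adjusted p = 0.306). The omega-hydroxylase gene Cyp4a14 was at 81.2, 122.6 and 231 FPKM, against 1.08, 51.4 and 3.57 FPKM in WT (log2 difference 4.07 ± 1.11 SE, limma adjusted p = 0.319). The groups of these 3 genes, which were named for having the smallest p of the list, did not overlap. Those of Aldh3a2 overlapped, as did those of every listed target outside the 7.

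Of 21 targets of the xenobiotic receptors CAR and PXR and of NRF2, 0 were called higher and 0 lower (limma, 7 at an unadjusted p under 0.05). In this list 4 lay above and 4 below WT in every library, and the median was 0.04. Gstm3, a mu class glutathione transferase gene, was at 3.84, 9.12 and 6.75 FPKM in replicates 1 to 3 labelled LKO, against 43.7, 39.2 and 38.0 FPKM in WT (limma adjusted p = 0.0876). Gclc, of glutathione synthesis, was at 159, 112 and 82.1 FPKM, against 32.0, 55.0 and 39.0 FPKM in WT (limma adjusted p = 0.281), and Srxn1, a sulfiredoxin gene, at 44.9, 56.3 and 12.9 FPKM, against 5.85, 5.97 and 6.33 FPKM in WT (limma adjusted p = 0.244).

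Genes highest around the central vein and around the portal tract were set beside the 10 because ethanol oxidation is zoned in the liver lobule. Of 13 pericentral genes, 0 were called higher and 0 lower (limma, 1 at an unadjusted p under 0.05), with a median of 0.18. Oat was at 384, 497 and 604 FPKM in replicates 1 to 3 labelled LKO, against 145, 215 and 351 FPKM in WT (limma adjusted p = 0.466), and Slc1a2 and Lhpp overlapped (limma adjusted p = 0.608 and 0.729). Of 14 periportal genes, 0 were called higher and 0 lower (limma, 1 at an unadjusted p under 0.05), with a median of -0.32. Uroc1 was at 68.4, 74.8 and 107 FPKM, against 153, 121 and 110 FPKM in WT (limma adjusted p = 0.609), below in every library. Hal and Ctsc overlapped (limma adjusted p = 0.669 and 0.494).

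**Figure D4:**
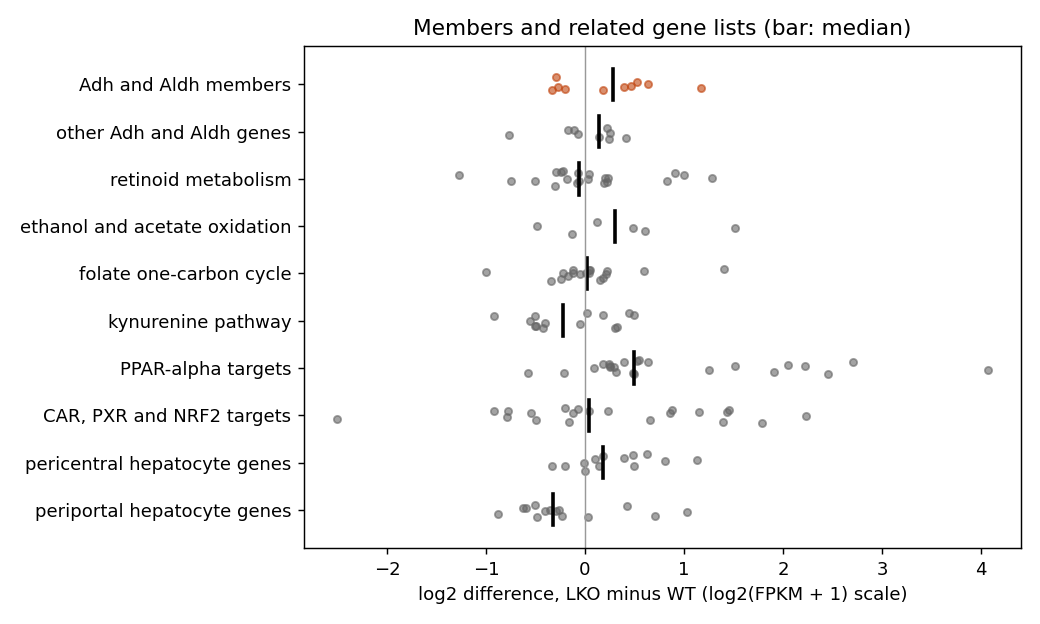
Fitted log2 differences, LKO minus WT, on the log2(FPKM + 1) scale for the 10 genes (orange) and for the tested genes of 9 related lists (grey), 1 point per gene, with black bars at the list medians. The medians run from -0.32 for periportal genes to 0.50 for PPAR-alpha targets, and that of the 10 genes is 0.29.

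Among markers of other cell types in the tissue, erythroid genes were the most abundant by summed level, above the mean of several of the 10 genes, and the rest were lower. The sum over 5 Kupffer cell genes was 12.4 to 38.1 FPKM in libraries labelled LKO and 13.0 to 37.4 FPKM in WT. Over 5 cholangiocyte genes it was 7.06 to 28.3 FPKM in libraries labelled LKO and 10.3 to 18.1 FPKM in WT, and over 5 stellate cell genes 10.7 to 18.1 and 8.57 to 14.9 FPKM. The 4 neutrophil genes summed to 2.83 to 12.6 FPKM in libraries labelled LKO and 0.410 to 2.82 FPKM in WT, with Ly6g listed at 0 in every library. The 4 B and plasma cell genes summed to 0.551 to 1.23 FPKM in libraries labelled LKO and 1.73 to 5.51 FPKM in WT, and 3 erythroid genes to 82.7 to 127 and 124 to 298 FPKM. Of the pancreas markers, Prss2, Cpa1 and Pnlip were listed at 0 in every library, while Cela1 was at 1.95 to 2.85 FPKM in libraries labelled LKO and 3.17 to 13.5 FPKM in WT. Of the kidney markers, Umod and Slc34a1 were listed at 0 in every library and Lrp2 was at most 0.034 FPKM, and the muscle markers Ckm, Acta1 and Myh4 were listed at 0 throughout. The part of these cell types in the levels of the 10 genes was not tested.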

How the data were processed

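Per the labels, the samples were liver RNA. The authors deposited 1 table per library of FPKM per gene identifier, a unit recognised from the numbers themselves. Multiplied by exon length (merged exons, GENCODE vM21), 96.1% to 96.4% of values above 0 came out as whole reads within 0.05 read. The library total implied by the worth of 1 read tracked the median-of-ratios size factor of that library (ratio relative to its mean 0.995 to 1.00), a scaling that no label describes. Per the submitters' processing notes, mm10 and the tools HISAT2 2.0.5, featureCounts 1.5.0-p3, CASAVA and DESeq2 1.20.0 are named, without their roles. At this depth 3 reads on 1 kb of exon equal 0.156 to 0.236 FPKM, a floor for counting error only. The 10 genes had 180 to 50928 reads per library.

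Symbols came from GENCODE vM21, in which 54495 of the 54532 deposited identifiers were found. Groups and replicate numbers came from the sample titles. Genes averaging 0.5 FPKM or more were fitted with limma-trend (limma 3.58.1, R 4.3.3, robust empirical Bayes) on log2(FPKM + 1), with genotype as the only term and Benjamini-Hochberg adjustment at 0.05. Differences are on that scale and understate changes of low genes. The fit was also run on simulated counts, drawn independently for each gene. Such counts lack the spread that genes share within a library, so no conclusion is drawn from them. The members and gene lists were chosen with earlier results of these data known. Named were all members, up to 3 genes of each list with the smallest p, Arid2, and the 3 genes most like the member of smallest p. Motifs, coding identities (Biopython 1.88) and promoter windows used RefSeq and GENCODE sequences. The alternatives were no filter or one at 1 FPKM, a pseudocount of 0.1, each library left out, a replicate block, both libraries numbered 1 left out, library totals, quantile normalization, array quality weights, voom, and the close pair summed. Scaling to totals of nuclear genes was added after seeing the data.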

Additional observations from a re-analysis of the deposited data

How the results depend on the processing

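None of the 10 genes was called under any of the 17 alternatives (smallest limma adjusted p 0.198, for Aldh1l1 with array quality weights). Of 169 values of single genes under them, 160 kept their direction, and 6 genes kept it under all. Some of these values could not turn. The filters and the replicate block leave the fitted difference as it was, as does summing the close pair for the genes outside it. The 9 that turned were Adh4 without LKO replicate 1 (0.31), without WT replicate 2 (0.05) and without both libraries numbered 1 (0.0046), Aldh1b1 without LKO replicate 1 (0.27) and without both numbered 1 (0.30), Adh5 without LKO replicate 2 (-0.07), LKO replicate 3 (-0.01) or WT replicate 1 (-0.20), and Aldh1a1 without WT replicate 1 (-0.44); the cause was not tested. With 1 library left out these ranged from -0.89 to 0.31 (Adh4), -0.81 to 0.27 (Aldh1b1), -0.20 to 0.62 (Adh5) and -0.44 to 0.90 (Aldh1a1). Over all genes, 5 calls became between 0 (without WT replicate 3) and 21 (without LKO replicate 3) with 1 library left out, 1 without a filter, 2 without both libraries numbered 1, 3 with quantile normalization and 1195 with array quality weights, whose estimation stopped before it converged. The replicate number as a block left 0 calls over all genes and none of the 10 (adjusted p between 0.318 and 0.886). Deviations from the group means of same-numbered libraries correlated at 0.49, 0.30 and -0.02 over genes, so the numbers were not taken to pair the samples, and LKO replicate 3 correlated best with WT replicate 2 (0.45). The median of all genes was 0.03, and -0.05 and -0.08 with totals of all reads and of nuclear genes. The 10 genes had as few as 180 reads in a library, and how counting error compares with the spread between libraries was not computed.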
